A study of Homo sapiens with 6 samples.

Results

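The genes of the U5 and U4/U6.U5 tri-snRNP proteins described here are PRPF8, SNRNP200, EFTUD2, SNRNP40, PRPF6, DDX23, PRPF3, PRPF4, PRPF31 and USP39, 10 of 20033 protein-coding genes in a RefSeq table of GRCh38.p14. They were chosen for their role in the spliceosome, and every peak whose summit, its highest point, lay between the start and the end of one of them was taken, 185 peaks in all. The peaks come from RNA immunoprecipitation followed by sequencing (RIP-seq) in HEK293T cells, an established human embryonic kidney line. SmD2, the product of SNRPD2, is taken here as the precipitated protein, which the titles do not name. The labels list 3 samples with the genotype SNRPD2OE, read here as overexpression of SNRPD2, and 3 samples with the genotype Ctrl. Each SNRPD2OE sample had 1 peak list, and the Ctrl samples were not analysed here, so the genotypes are not compared. The labels do not say whether the 3 samples are separate cultures, and their extraction text covers total RNA depleted of ribosomal RNA without describing the immunoprecipitation.

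The spliceosome removes introns from pre-mRNA, and it is assembled from small nuclear ribonucleoproteins (snRNPs) built on the snRNAs U1, U2, U4, U5 and U6. SmD2 belongs to the ring of Sm proteins around U1, U2, U4 and U5. The U4/U6.U5 tri-snRNP joins the pre-mRNA as 1 particle, after which U4 is unwound from U6, U1 leaves the 5′ splice site, and U5, with PRPF8 at its centre, holds the exons for the reaction. Inherited variants of PRPF8, PRPF31, PRPF3, PRPF4, PRPF6 and SNRNP200 cause retinitis pigmentosa, a degeneration of the retina, although the proteins serve splicing in all cells. The peaks described here lie within the spans of the genes that encode these proteins. The lists give no strand, so a peak may also come from another RNA of the same span. The peaks say nothing of contacts between SmD2 and the proteins themselves.

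Peaks that touched an annotated start are shown first, because there the bases below the peak can be read. RefSeq windows of 250 bases before to 50 bases after an annotated start were found for 9 of the 10 genes, 12 windows in all, and PRPF3 had none. A peak of replicate 1, 2 or 3 touched 5, 3 and 1 of the 12 windows, against 1250, 2773 and 1110 of 22198 windows of protein-coding genes, when peaks of at most 1000 bp were counted. In 4 genes the cover was more than 3 bases: PRPF4, EFTUD2, PRPF31 and USP39. The first 3 are printed 5′ to 3′ on the strand of the gene (RefSeq, GRCh38.p14), with the bases inside a peak in capitals, so that the cover can be placed against the start at base 251 of each window.
PRPF4, chr9:113275408-113275707, plus strand, peaks of replicates 1 and 3: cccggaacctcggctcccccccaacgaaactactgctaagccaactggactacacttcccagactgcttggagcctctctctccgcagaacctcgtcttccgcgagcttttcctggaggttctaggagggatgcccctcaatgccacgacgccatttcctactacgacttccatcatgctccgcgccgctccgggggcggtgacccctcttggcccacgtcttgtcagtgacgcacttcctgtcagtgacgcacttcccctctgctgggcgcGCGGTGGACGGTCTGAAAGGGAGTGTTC
EFTUD2, second annotated start, chr17:44899319-44899618, minus strand, peak of replicate 1: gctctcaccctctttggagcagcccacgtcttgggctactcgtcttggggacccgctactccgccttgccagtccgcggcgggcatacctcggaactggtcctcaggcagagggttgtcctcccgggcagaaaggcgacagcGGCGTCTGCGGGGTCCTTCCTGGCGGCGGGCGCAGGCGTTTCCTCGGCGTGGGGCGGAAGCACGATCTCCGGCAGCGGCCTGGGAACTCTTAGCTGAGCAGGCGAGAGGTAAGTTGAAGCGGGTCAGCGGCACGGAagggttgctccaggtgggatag
PRPF31, chr19:54115504-54115803, plus strand, peak of replicate 2: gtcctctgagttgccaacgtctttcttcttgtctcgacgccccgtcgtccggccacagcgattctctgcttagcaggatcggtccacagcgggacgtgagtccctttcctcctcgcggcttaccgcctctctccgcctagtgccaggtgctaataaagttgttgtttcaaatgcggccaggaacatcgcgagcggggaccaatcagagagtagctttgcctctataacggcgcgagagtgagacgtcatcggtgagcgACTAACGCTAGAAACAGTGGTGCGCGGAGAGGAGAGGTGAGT

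In PRPF4 and PRPF31 the capitals lay wholly after the start, with 28 and 42 bases covered, whereas in EFTUD2 they ran across the start, with 108 bases before it and 28 after it. EFTUD2 has another annotated start upstream, and of that window 81 bases were covered, 31 of them before the start. The window of USP39 had 127 covered bases, but its peak, in replicate 2, rested on 1 read and had its summit 73 bases before the start, outside the gene, so it is not among the 185 peaks. Other genes lie close by on the opposite strand: CDC26 lies 86 bp from the start of PRPF4, TFPT 97 bp from that of PRPF31 and DNAAF19 284 bp from that of EFTUD2. The lists give no strand, so reads from such neighbours cannot be told apart from reads of the genes named here.

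The series also concerns PUS7, an enzyme that turns U into pseudouridine. The letters TNTAA and TNTAG, in which PUS7 modifies the U written here as the T in front of A, were sought on both strands of the windows, with overlapping matches counted. Over the whole windows, the gene's own strand held TNTAA in 4 and TNTAG in 5 of the 12, against 40.8% and 39.2% of all windows. On either strand it was 4 and 7 of the 12, against 53.8% and 58.2%. Downstream of the start on the gene's own strand, TNTAA was found in 2 and TNTAG in 0 of the 12 windows, against 5.23% and 6.75% of all windows. Both of these TNTAA windows belong to USP39. On the gene's own strand, no match lay wholly inside covered bases. Cover of matches on the opposite strand was not counted. The capitals of PRPF31 hold CTAGA, which reads TCTAG on that strand, and the covered bases of USP39 hold CTACA, which reads TGTAG. After the sequences had been seen, GTAAGT and GTGAGT were sought as well, 2 frequent spellings of a 5′ splice site. GTAAGT began at base 251 of the printed EFTUD2 window. Of all windows, 2.96% held it on the gene's strand and 0.680% held it there downstream of the start. GTGAGT occurred at 2 places in the PRPF31 window, 1 of them covered, at its end. Of all windows, 7.43% held it on the gene's strand and 1.97% held it there downstream of the start. A match to these letters is a description and not a site, and exons were not used here.

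All 10 genes had a summit in every replicate. Replicates 1, 2 and 3 had 62, 81 and 42 peaks in them. For all protein-coding genes the shares with a summit were 45.3%, 76.8% and 65.5%, and 38.5% had one in every list. Among the 6114 protein-coding genes with a span of 15960 to 51969 bp, the length range of the 10 genes, the shares were 52.7%, 87.7% and 77.4%, and 46.9% had one in every list. Much of the share in replicate 3 came from very wide peaks. Among peaks of at most 1000 bp all 10 genes still had a summit in replicate 3 and in every list, against 30.3% and 23.9% of protein-coding genes, and 38.4% and 31.2% of those in the length range.

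The number of reads at a summit, recovered from the deposited fold and p-value, was mostly above 10 in these genes. Its median was 15.5, 15 and 13.5 reads in replicates 1, 2 and 3, against 5, 1 and 2 reads over all peaks in protein-coding genes. Peaks with at least 10 reads made up 75.8%, 69.1% and 61.9% of the peaks in the 10 genes, against 22.4%, 6.85% and 10.8% in protein-coding genes. Peaks of a single read, 65.1% of the protein-coding peaks of replicate 2 and 45.9% of those of replicate 3, were 3 of 81 in replicate 2 and 0 in replicates 1 and 3 in these genes. The median width of the peaks in the 10 genes was 89.5, 91 and 89 bp, against 79, 40 and 7411.5 bp in protein-coding genes. They were thus narrower in replicate 3 alone. Only 1 of them, in PRPF3 in replicate 3, was wider than 1000 bp, against 67.4% of the protein-coding peaks of that replicate.

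A summit of at least 10 reads was present in 9, 9 and 7 of the 10 genes in replicates 1, 2 and 3, against 14.2%, 15.9% and 13.4% of protein-coding genes and 18.2%, 20.4% and 17.4% of those in the length range. In all 3 replicates it was present in 7 genes, against 7.45% and 10.5%. PRPF3, PRPF31 and PRPF6 were the exceptions. The abundance of each RNA in the cells was not measured in the lists. A more abundant transcript and a more strongly precipitated one therefore cannot be told apart.

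**Figure D1:**
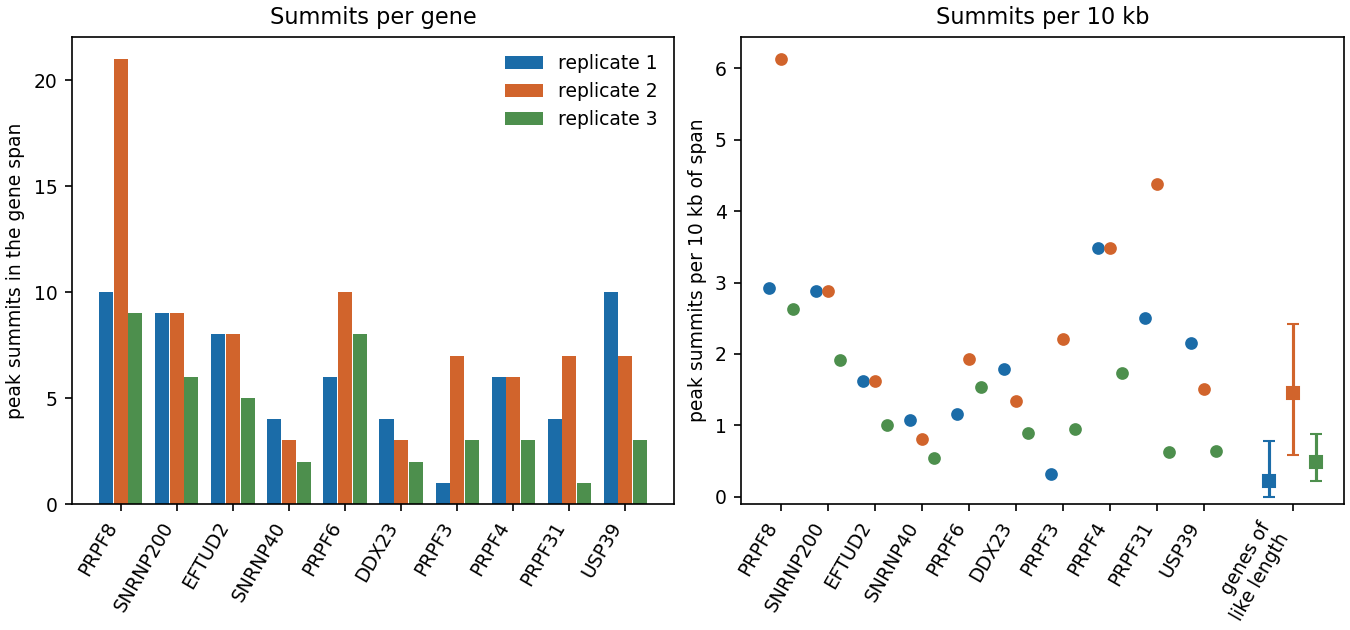
Peak summits in each of the 10 genes by replicate (left, counts as bars) and per 10 kb of gene span (right, points), with the median and quartiles of 6114 protein-coding genes of like length at the far right (squares with bars). PRPF8 has 10, 21 and 9 summits, and PRPF3 has 1, 7 and 3.

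Per 10 kb of gene, the 10 genes had medians of 1.97, 2.06 and 0.977 summits in replicates 1, 2 and 3, against 0.228, 1.46 and 0.487 for genes in their length range. The difference was widest in replicate 1, the shortest list. For peaks of at most 1000 bp, the 7 genes with 10 reads at a summit in every list had medians of 2.15, 1.62 and 1.01, against 1.12, 2.01 and 1.15 for the 641 genes of that length with as many reads. Of these 7, 6, 3 and 3 lay above the medians of the 641. In replicates 2 and 3 they were spread to both sides, with 3 above the upper quartile and 2 below the lower one in each.

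Most of these peaks did not meet a q-value of 0.05, the p-value adjusted over the list. In replicates 1, 2 and 3, 6, 9 and 0 peaks did so, in 6, 6 and 0 of the 10 genes. Of protein-coding genes 5.21%, 18.3% and 4.01% held such a peak, and of those in the length range 5.92%, 20.3% and 4.79%. In at least 1 replicate it was met in 9 of the 10 genes, against 22.3% and 25.4%, and SNRNP200 was the exception. No gene met it in all 3, against 0.679% and 0.671%.

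The deposited fold is the height of the peak over the caller's background, each with 1 added, and it depends on the scale of its list, so folds are set against each other only within a list. The median fold in the 10 genes was 2.78, 2.19 and 2.66 in replicates 1, 2 and 3, against 2.74, 1.94 and 1.495 over protein-coding peaks. The caller's background below these peaks was also higher, with medians of 3.34, 5.42 and 0.938 reads, against 0.195, 0.0722 and 0.0316. At like numbers of reads most of the folds were not above the protein-coding median. Of the peaks of at most 1000 bp with another protein-coding peak of the same reads to compare, 17 of 61, 26 of 81 and 13 of 41 lay above the median fold of protein-coding peaks with the same number of reads. In replicates 1 and 3 many peaks equalled that median and were not counted as above it, so the remainder did not all lie below. Among peaks with at least 10 reads the median fold was 2.65, 1.99 and 3.10 in the 10 genes, against 2.93, 2.198 and 3.38. These 2 sets were not matched in reads, with medians of 17, 17 and 17.5 reads in the 10 genes, against 14, 15 and 14. The peaks thus held many reads and stood on a high background.

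**Figure D2:**
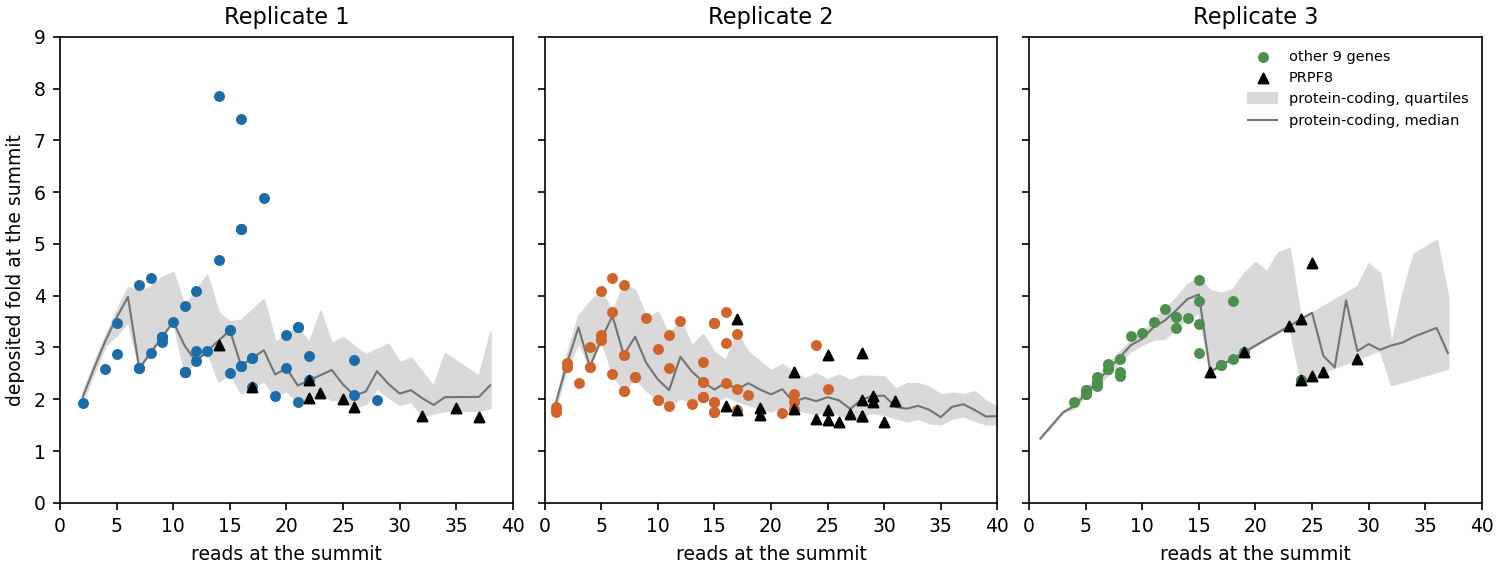
Deposited fold against reads at the summit for the peaks of at most 1000 bp in the 10 genes, 1 panel a replicate, with PRPF8 as triangles and the other 9 genes as circles. The grey line and band are the median and quartiles of protein-coding peaks with the same number of reads, and 17 of 61, 26 of 81 and 13 of 41 peaks of the 10 genes lie above the line in replicates 1, 2 and 3. Peaks that lie on the line are not counted as above it.

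PRPF8, the large scaffold protein that encloses the catalytic centre, carried the most peaks. The gene (chr17:1650629-1684867, minus strand) had 10, 21 and 9 summits in replicates 1, 2 and 3. Its density was exceeded by 106, 58 and 73 of the 6114 genes in its length range. All 40 peaks had at least 10 reads, with medians of 24, 25 and 24 and maxima of 37, 31 and 29. Their folds were low for such reads, with medians of 2.01, 1.81 and 2.79. The peak with most reads, 37 in replicate 1, lay 3236 bp from the start and had a fold of 1.66, at percentile 0.108 of the folds of that list.

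The strongest PRPF8 peaks by p-value had folds of 3.05, 2.89 and 4.63 in replicates 1, 2 and 3, with 14, 28 and 25 reads. They lay 10378, 23511 and 31241 bp from the start, so no list had its strongest peak where another did. Only replicate 2 had PRPF8 peaks with a q of at most 0.05, 3 in number.

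Along PRPF8 the summits formed 2 fields, with none in any replicate between 11.3 and 22.8 kb from the start. Within the fields the replicates met often. Peaks of all 3 covered 3 segments of at least 20 bp in common. The folds and reads given for a shared segment, here and for the other genes, are those of each peak at its own summit. The first, chr17:1680947-1681030, lay 3879 bp from the start and was 84 bp long, with folds of 2.24, 1.86 and 2.53 and with 17, 16 and 16 reads. The second, chr17:1659437-1659528, was 92 bp long, with folds of 1.998, 1.94 and 2.45 and with 25, 29 and 25 reads. Its 3 summits lay within 10 bp. The third, chr17:1653648-1653684, was 37 bp long and 3037 bp from the end, in peaks with folds of 2.03, 1.59 and 4.63 and with 22, 25 and 25 reads. The 3 summits of these peaks were 265 bp apart, and that of replicate 2 lay 207 bp outside the segment.

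**Figure D3:**
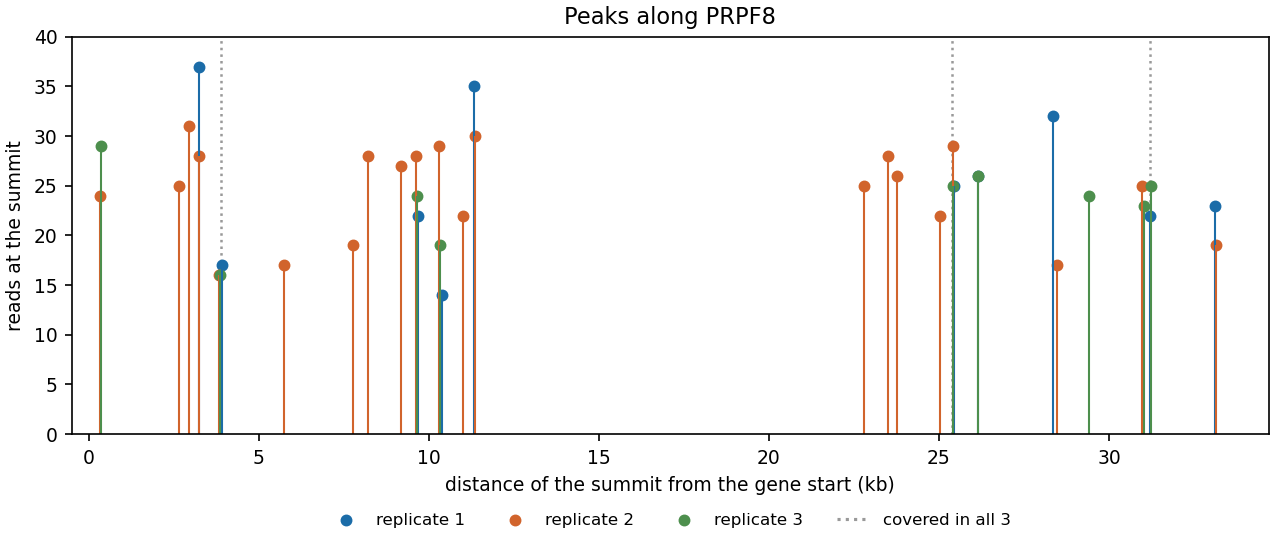
Peaks of PRPF8 by distance of the summit from the gene start in kb, with the reads at the summit as height and colours for the replicates. The 40 summits fall in 2 fields with none between 11.3 and 22.8 kb, and dotted lines mark the 3 segments covered in all 3 replicates.

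SNRNP200, the helicase that unwinds U4 from U6, had 9, 9 and 6 summits in replicates 1, 2 and 3 (chr2:96274338-96305546, minus strand). Of these, 8, 9 and 6 had at least 10 reads, with medians of 17, 15 and 17. Its strongest peaks had folds of 3.40, 3.08 and 3.90 with 21, 16 and 18 reads, at 16218, 19118 and 8537 bp from the start. No peak of SNRNP200 met a q of 0.05.

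No segment of at least 20 bp of SNRNP200 was covered by all 3 lists, though at 1 place their summits lay within 48 bp. These peaks, 18782, 18734 and 18742 bp from the start, had folds of 2.80, 2.72 and 2.66 with 17, 14 and 17 reads, and they formed a chain in which the outer peaks barely met. Near the start, replicates 1 and 3 had summits 774 and 804 bp downstream with 26 and 24 reads and folds of 2.07 and 2.36.

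EFTUD2, the GTPase of U5 next to PRPF8 and SNRNP200, had 8, 8 and 5 summits in replicates 1, 2 and 3 (chr17:44849948-44899445, minus strand). Of these, 7, 6 and 4 had at least 10 reads. Its strongest peaks had folds of 4.70, 3.69 and 3.596 with 14, 16 and 13 reads, and those of replicates 2 and 3 shared chr17:44862755-44862851, 97 bp long. The strongest peak of replicate 1 lay elsewhere, over the segment covered by all 3, chr17:44872494-44872570, 77 bp long and at 54.4% of the gene. The folds of the peaks there were 4.70, 1.75 and 3.49 and their reads 14, 15 and 11, with summits within 27 bp. The peak at the start of the gene, shown above, was in replicate 1 alone, with 9 reads and a fold of 3.20.

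SNRNP40, a U5 protein with WD repeats, had few peaks, 4, 3 and 2 in replicates 1, 2 and 3, but they recurred (chr1:31259568-31296788, minus strand). At the start of the gene the summits lay 123, 119 and 105 bp downstream, with 21, 24 and 18 reads and with folds of 3.40, 3.04 and 2.78. The 3 peaks shared chr1:31296636-31296676, 41 bp. At a second place, 25372, 25408 and 25350 bp from the start, the summits lay within 58 bp with 7, 10 and 8 reads and folds of 2.60, 2.97 and 2.54. Another place, chr1:31259915-31260084 near the end, was covered in replicates 1 and 2, with folds of 5.30 and 3.47 and with 16 and 15 reads. Of the 9 peaks of SNRNP40, 8 thus lay at these 3 places, and the other was in replicate 1. A pseudogene copy, SNRNP40P1 on chromosome 3, had 0 summits in each list, so how reads were split between the copies could not be seen. ZCCHC17, on the opposite strand, lies 244 bp from the start of SNRNP40.

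PRPF6, which bridges U5 and U4/U6, had 6, 10 and 8 summits in replicates 1, 2 and 3 (chr20:63981132-64033100, plus strand). They were thinner than those of the U5 core, with medians of 8.5, 8 and 6 reads, and 2, 3 and 0 of them had at least 10. The strongest had folds of 5.30, 3.51 and 3.22 with 16, 12 and 9 reads, at 30255, 18570 and 1983 bp from the start. The segment covered by all 3 lists was at the end of the gene, chr20:64032997-64033026, 30 bp long and 89 bp from the end. The peaks that met there had folds of 3.797, 4.08 and 2.10 with 11, 5 and 5 reads. The summits of replicates 1 and 3 lay 114 and 82 bp outside it. A further place near the start, 1996, 2056 and 1983 bp downstream, had summits within 73 bp with 7, 5 and 9 reads.

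DDX23, the helicase that releases U1 from the 5′ splice site, had 4, 3 and 2 summits in replicates 1, 2 and 3 (chr12:48829756-48852163, minus strand). Its strongest peaks in replicates 1 and 3 shared chr12:48832451-48832509, 59 bp long and 2724 bp from the end, with folds of 5.90 and 3.58 and with 18 and 14 reads. The peak of replicate 1 there met a q of 0.05, with a −log10 q of 2.60. Replicate 2 had no summit in the last 6 kb of DDX23. Its strongest peak, 14184 bp from the start, had a fold of 3.25 with 5 reads.

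PRPF3 and PRPF4 are partners in the U4/U6 snRNP. PRPF3 (chr1:150321468-150353233, with positions counted from the lower coordinate) had 1, 7 and 3 summits in replicates 1, 2 and 3. Its only peak in replicate 1, chr1:150325814-150325869, had a fold of 7.86, the largest of the 62 peaks of that replicate in these genes. This peak had 14 reads over a background of 0.325 reads and a −log10 q of 5.85. Neither of the other lists had a peak there. Its summit lay at 4360 bp, the nearest summit of replicate 3 at 3579 bp with 6 reads, and the peaks of replicate 2 had 1 to 7 reads. The only place where 2 lists met in PRPF3 rested on 1 read in replicate 2 and 3 reads in replicate 3, where the peak was 1188 bp wide.

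PRPF4 (chr9:113275658-113292905, plus strand) had 6, 6 and 3 summits in replicates 1, 2 and 3, of which 5, 5 and 2 had at least 10 reads. Its strongest peaks had folds of 5.30, 3.47 and 3.75 with 16, 15 and 12 reads. The strongest of replicate 3 was the one at the start shown above. Replicate 1 met it there, with summits 54 and 80 bp downstream in replicates 1 and 3, 12 reads in each, and folds of 4.10 and 3.75. Replicates 1 and 3 met again at 904 and 970 bp, with 11 and 10 reads. Replicate 2 had no summit in the first 3 kb, and the strongest peak of replicate 1, 15076 bp from the start, was met by one of replicate 2 with 14 reads and a fold of 2.05.

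PRPF31, which binds U4 snRNA together with SNU13, had 4, 7 and 1 summits in replicates 1, 2 and 3 (chr19:54115754-54131713, plus strand). Only 1 of its 12 peaks had 10 reads or more, the strongest of replicate 2, with 15 reads and a fold of 3.47 at 7742 bp. Replicate 1 had a peak there too, with 9 reads and a fold of 3.20, and the pair shared chr19:54123473-54123511. The single peak of replicate 3, 8765 bp from the start with 6 reads, met neither. The peak at the start shown above rested on 2 reads.

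USP39, an inactive relative of ubiquitin proteases needed to assemble the tri-snRNP, had 10, 7 and 3 summits in replicates 1, 2 and 3 (chr2:85602861-85649283, plus strand). In replicate 1, 2 of them also lay in C2orf68. Its strongest peaks had folds of 7.41, 3.26 and 4.30 with 16, 17 and 15 reads. The one of replicate 1, 18698 bp from the start, had a −log10 q of 4.49, and a peak of replicate 2 overlapped 76 bp of it, short of its summit, with 15 reads and a fold of 1.75. The segment covered by all 3 lists, chr2:85630801-85630842, was 42 bp long, with folds of 2.76, 1.95 and 3.89 and with 26, 15 and 15 reads. Close to the end of the gene, replicates 2 and 3 had summits at 46284 and 46331 bp with 14 and 15 reads.

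**Figure D4:**
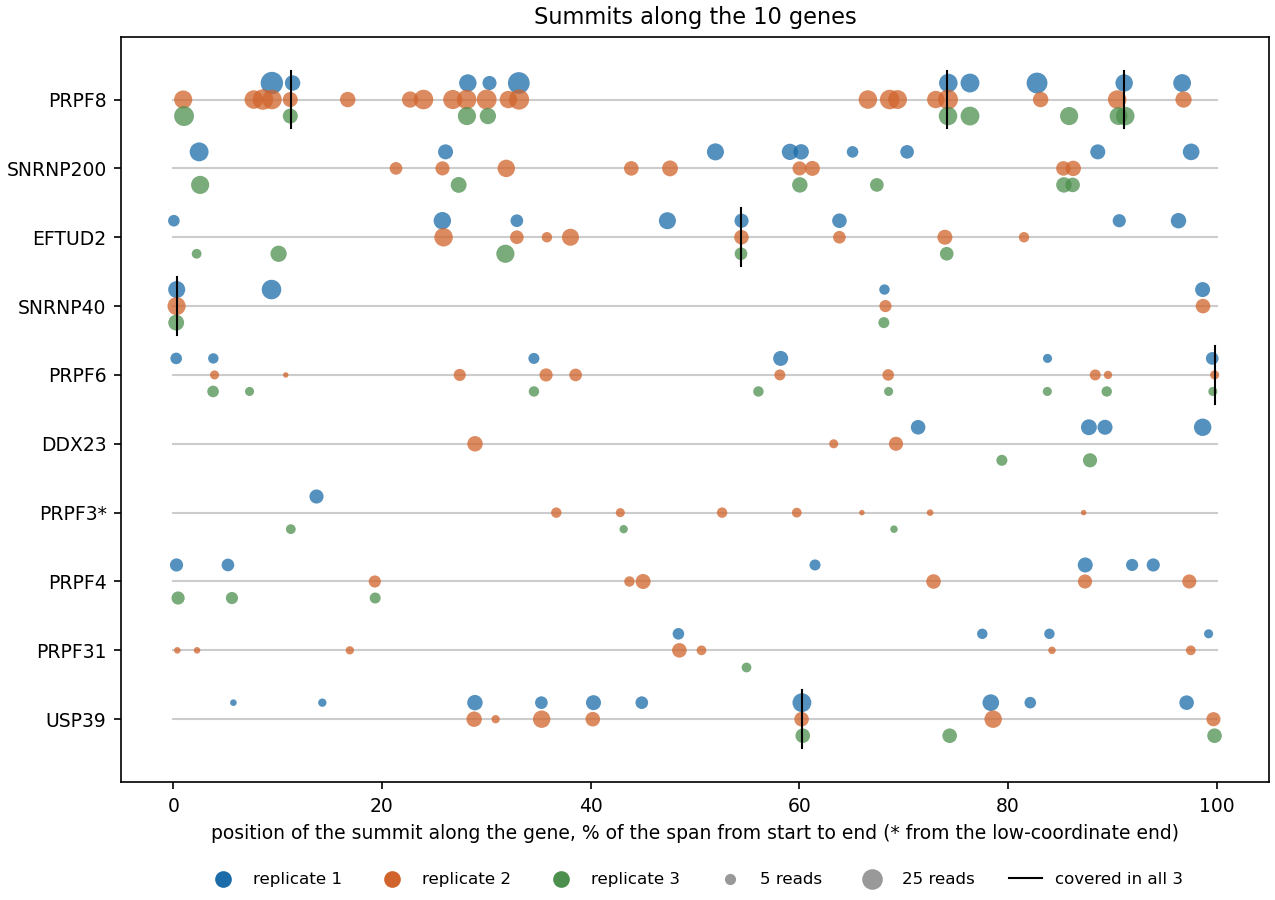
Summits along the 10 genes, from the start (0%) to the end (100%) of each span, with a row of points for each replicate and the size of a point for its reads at the summit. Black lines mark the 7 segments covered in all 3 replicates, in PRPF8, EFTUD2, SNRNP40, PRPF6 and USP39, and PRPF3 is drawn from its lower coordinate.

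Taking the genes together, the summits were spread along their length. In the 9 genes with a known strand, the median position was 60.3%, 44.5% and 60.1% of the span in replicates 1, 2 and 3, against 62.2%, 57.5% and 51.8% over protein-coding genes. The first 10% of the gene held 10 of 61, 8 of 74 and 8 of 39 summits, or 16.4%, 10.8% and 20.5%, against 14.2%, 12.6% and 14.6%. The last 10% held 19.7%, 9.46% and 10.3%, against 19.1%, 17.5% and 13.9%. Over all peaks, the 3 replicates did not depart from protein-coding genes in the same direction at either end. Among peaks with at least 10 reads, however, the first 10% held 6 of 46, 5 of 56 and 5 of 26 summits. That is a smaller share in each replicate, 13.0%, 8.93% and 19.2%, against 19.2%, 19.9% and 25.2%. The counts are small, and PRPF8 alone held 10, 21 and 9 of these peaks.

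The replicates overlapped in a minority of the peaks. Of the peaks of replicate 1 in these genes, 38.7% (exact 95% binomial interval 26.6% to 51.9%) met replicate 2 (at least 1 bp in common), against 35.0% over protein-coding genes. With replicate 3 it was 29.0% (18.2% to 41.9%), against 29.2%. Of the peaks of replicate 2, 29.6% met replicate 1, against 8.31%, and of replicate 3, 42.9% met replicate 1, against 16.4%. Peaks of replicate 2 met replicate 3 less often than elsewhere, at 23.5% against 47.2%. Peaks of replicate 3 met replicate 2 at 47.6%, against 57.7%. Among peaks of at most 1000 bp both orders turned, at 22.2% against 4.47% and at 46.3% against 35.3%. With that width the share of replicate 1 that met replicate 3 was 29.0% as before, against 14.5%. These intervals cover counting error only, since the peaks of a gene can share 1 RNA and duplicate reads are not marked.

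A segment of at least 20 bp covered by all 3 lists was present in 5 of the 10 genes, against 10.8% of protein-coding genes and 11.8% of those in the length range. With peaks of at most 1000 bp it was again 5 of 10, against 5.97% and 8.16%. Such segments need reads, and the shares changed when genes with as many reads were taken. Among genes with at least 10 reads at a summit in every list, 4 of 7 had such a segment, against 51.5% of 1493 protein-coding genes. Sites with the 3 summits within 100 bp, a measure added after the data were seen, were found in 6 of the 10 genes, against 9.53% of protein-coding genes. Among genes with at least 10 reads in every list it was 5 of 7, against 54.2%. The 10 sites were 4 in PRPF8, 2 in SNRNP40 and 1 each in EFTUD2, PRPF6, SNRNP200 and USP39. Beside genes with such reads the shares thus stood closer together, but 7 genes are too few to show that they are alike. The genes were matched for a floor of 10 reads only.

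**Figure D5:**
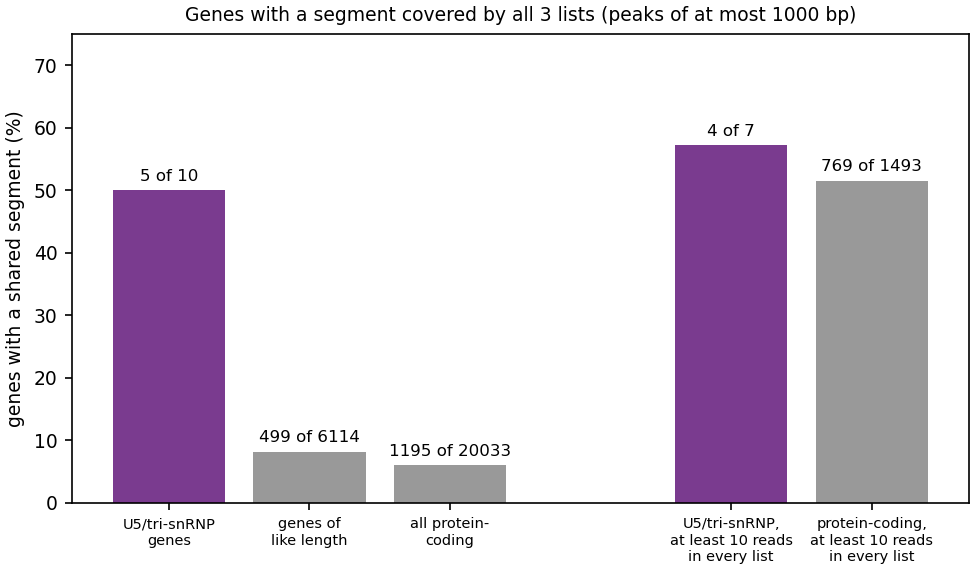
Share of genes with a segment of at least 20 bp covered by all 3 lists, from peaks of at most 1000 bp. The U5 and tri-snRNP genes stand at 5 of 10, against 8.16% of genes of like length and 5.97% of all protein-coding genes (left), and at 4 of 7, against 51.5%, where both have at least 10 reads in every list (right).

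Other proteins of the same machinery were counted in 3 lists. Of 12 further U5 and tri-snRNP proteins, 8 had a summit in all 3 replicates and 2 a segment covered by all 3. In SART3, which helps U4 and U6 to pair, the strongest peaks had folds of 4.03, 4.76 and 3.26 with 6, 6 and 10 reads. In AAR2, a chaperone of U5 assembly, they had folds of 3.13, 3.11 and 4.52 with 14, 14 and 15 reads. In ECD, which binds PRPF8, they had folds of 3.50, 4.73 and 3.01 with 10, 8 and 8 reads. The ECD peak of replicate 3 was 6623 bp wide. Of 9 others linked to the tri-snRNP, 4 had a summit in all 3 replicates and 2 a shared segment. PRPF38A had folds of 4.96, 4.58 and 3.72 with 15, 16 and 13 reads. SMU1 had 30, 26 and 24 reads with folds of 2.71, 3.69 and 6.35, and TFIP11 had 7, 6 and 14 reads with folds of 3.05, 4.54 and 3.58.

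Of 16 proteins of the PRPF19 complex and its neighbours, which keep the active spliceosome together, 10 had a summit in all 3 replicates and 7 (43.8%) a shared segment. The folds of PRPF19, its ubiquitin ligase, were 5.30, 3.16 and 4.19 with 16, 25 and 19 reads. Those of CTNNBL1 were 6.70, 5.43 and 3.26 with 13, 6 and 9 reads, though its peak in replicate 3 was 27580 bp wide. Those of CRNKL1 were 5.18, 4.31 and 3.40 with 10, 15 and 10 reads. The 10 genes thus stood at 10 of 10 and 5 of 10, beside 8 of 12 and 2 of 12, 4 of 9 and 2 of 9, and 10 of 16 and 7 of 16 in the 3 lists, while all protein-coding genes stood at 38.5% and 10.8%. From peaks of at most 1000 bp, shared segments were in 5 of 10, 1 of 12, 2 of 9 and 6 of 16. Of all protein-coding genes, 5.97% then had one. The median span was 33.0 kb in the 10 genes and 17.5, 19.8 and 15.7 kb in the 3 lists. The bearing of span length on these shares was not tested.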

How the data were processed

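RIP-seq peak lists of the 3 SNRPD2OE samples were used, grouped by the titles in the labels. The submitters' processing notes name build GRCh38 and the tools MACS2 2.2.9.1, STAR 2.7.10b and cutadapt 4.2. Which library served as background, which options were set and what was done with duplicate reads was not given in the sources used here. Replicates 1, 2 and 3 hold 30111, 160931 and 65121 peaks, and 828, 5158 and 1883 peaks numbered before the first listed one were not analysed here.

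The score deposited by the authors is the whole part of 10 times the −log10 p-value. The deposited fold (a ratio) is the pileup plus 1 over the background plus 1, both scaled and taken at the summit. The authors deposited an unadjusted −log10 p-value and a −log10 q-value adjusted within its list. The other deposited columns give starts, ends and summits. These folds and scores, the authors' own, were compared within a list alone.

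Reads at a summit were recovered as the whole number that gives both fold and p-value (within 0.002 on the −log10 scale). The height of 1 read was 0.599, 1 and 0.254, and 1 peak, in replicate 3, was not solved. In 4 peaks of these genes, all in replicate 1 with 11 reads, 2 numbers were possible. Library depth is unknown, and a peak is as precise as its reads allow. The steps were tested on simulated data, where at least 99.97% of read numbers were recovered. The simulated backgrounds were lower than the median background of 5.42 reads in replicate 2 of these genes. Recovery at such backgrounds, which include many PRPF8 peaks, was thus not tested.

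Spans, starts and windows came from RefSeq (GRCh38.p14). The gene list, the 3 pathway lists and the alternatives were chosen with earlier results of these data known. All 10 genes are named, each by the peak with the highest −log10 p, and in each pathway list the 3 genes with the highest mean percentile of fold among those with a summit in all 3 replicates. PRPF4B had no match. With 1 group, no test was made, and shares over protein-coding genes, for the main counts also those of like length, are given beside the counts. Alternatives were a q-value of at most 0.05, a width of at most 1000 bp, at least 10 reads, lists of equal length, other overlaps, other assignment of peaks to genes and leaving out each replicate. Python 3.11.15, pandas 2.3.3 and scipy 1.17.1 were used.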

Additional observations from a re-analysis of the deposited data

How the results depend on the processing

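With a deposited q of at most 0.05, a mean of 4 genes had a summit in a replicate (10 with all peaks), 0 genes had one in all 3 (10), 0 had a shared segment (5), and the mean number of peaks was 5 (61.7). With lists of equal length 3 genes had a shared segment, and with segments of at least 50 bp 2 did. A reciprocal overlap of 50% gave a mean overlap of 19.7% between replicates, against 35.2% at 1 bp. Leaving out each replicate in turn left all counts of genes with a summit at 10, gave 8 genes with a segment shared by the remaining pair in each case, 52 to 71.5 peaks on average, a mean overlap of 34.2% to 35.9% and a mean position of 52.3% to 60.2% (54.9% with all 3). The 8 follows from asking for cover in fewer lists. A width of at most 1000 bp, at least 10 reads, any overlap with the span, summits in no other gene and segments of at least 1 bp kept each count within 1.5 times. No paired analysis was possible because the Ctrl samples were not analysed here. Peaks of few reads limit PRPF3, PRPF6 and PRPF31 most.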
